A study of Drosophila melanogaster with 12 samples.

Results

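Genes for the subunits of the proteasome were followed through 2 days in adult fly heads. Members were all genes whose symbol starts with Prosalpha, Prosbeta, Rpn or Rpt followed by a digit, each read from its probe set with the highest mean. This gave 39 genes of the 10844 genes that had a probe set of their own. The core particle supplied 12 of them, 6 alpha genes (Prosalpha2 to Prosalpha7) and 6 beta genes (Prosbeta2 to Prosbeta7). The regulatory particle supplied 14, namely the ATPases Rpt2, Rpt3, Rpt4 and Rpt5, the non-ATPase base subunits Rpn1, Rpn2 and Rpn13, and the lid subunits Rpn3, Rpn5, Rpn6, Rpn7, Rpn8, Rpn11 and Rpn12. The other 13 carry a T or an R after the subunit number and are second copies of a subunit gene, here called T and R copies. Prosalpha1 and Prosalpha1R shared a probe set and were not read. Prosbeta1, Rpt1, Rpt6, Rpn9, Rpn10, Prosbeta5R2 and Rpt6R had no probe set named for them and were not analysed here.

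All flies were of the strain cn bw, which carries the eye colour mutations cinnabar and brown, so both days share this genotype and the series holds no other strain. After earlier days under 12 hours of light and 12 hours of dark, heads were taken at 4-hour steps over another such day (ZT4 to ZT24, hours after lights on) and over the following day in constant darkness (CT4 to CT24, hours after subjective lights on). Each time point is 1 array made from many heads, which gives 6 arrays a day and no replicate of any time point. Sex and age are not given in the labels, and darkness always came on the later day, so lighting and elapsed time cannot be told apart.

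The 26S proteasome breaks down proteins that carry chains of ubiquitin. Its core particle is a barrel in which rings of alpha subunits guard the entry and rings of beta subunits line the chamber, where Prosbeta1, Prosbeta2 and Prosbeta5 hold the cutting sites. The regulatory particle caps the barrel: its lid and base bind the tagged protein, Rpn11 removes the ubiquitin chain, and the ring of Rpt ATPases unfolds the protein and threads it in. In the fly circadian clock, the proteins PERIOD and TIMELESS are removed each day through this route. The subunit genes of a cell are known to be transcribed in concert, and in flies the Cap-n-collar factor (cnc) raises many of them when proteasome activity is short. Several T copies are known from the male germ line, where they replace their standard partners during sperm formation.

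Of the 26 standard genes of the core and regulatory particles, all but Rpn8 had a higher mean value than every T or R copy. Levels below are log2 values made by RMA, a method that turns the probes of a set into 1 value. They depend on each probe set's own probes, so the order of genes by level is not an order of RNA amounts. Means over the 12 arrays ran from 6.18 (Prosalpha4) to 8.78 (Prosalpha2) in the core particle, with a median of 7.22. In the regulatory particle they ran from 5.25 (Rpn8) to 7.97 (Rpt5), with a median of 7.29. The medians sat at the 92.2nd and 92.7th percentile of all genes, so the particles did not stand apart from each other. A mean of at least 6 was found in 12 of 12 core genes and in 13 of 14 regulatory genes, the exception being Rpn8 at the 57.5th percentile.

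The T and R copies ran from 2.90 (Prosbeta4R2) to 5.55 (Prosbeta2R2), with a median of 3.67 at the 22.9th percentile. Of the 13, 9 had a mean under 4 and 0 reached 6. Those above 4 were Prosbeta2R2, Prosalpha4T2 (5.44), Prosbeta2R1 (4.97) and Prosbeta5R1 (4.16). The 19 measured of 24 listed testis genes had means with a median of 4.399, against 4.94 over all genes. Of these, 7 had a mean under 4 and 5 a mean of at least 6, which 2778 of all 10844 genes had. At the low end dj, djl, bb8 and ocn, genes of sperm formation, lay between 2.44 and 2.81. At the high end Mst98Ca, a sperm tail gene, read 7.31, followed by Mst84Db (6.745), hale (6.23) and Mst87F (6.20). In bulk RNA a low value can come from few cells with the transcript, from little of it per cell, or from background signal with no transcript. These cannot be told apart, so a dim value does not show that a copy is expressed in heads.

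**Figure D1:**
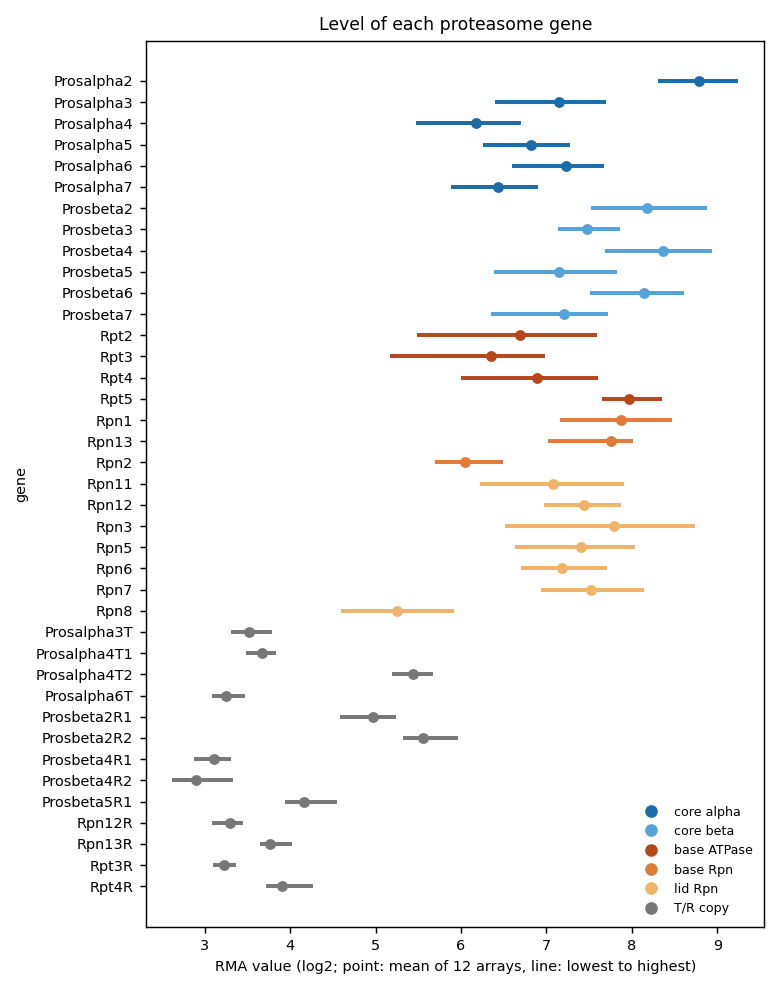
Level of each of the 39 proteasome genes on the horizontal axis (RMA value, log2), with a point at the mean of 12 arrays and a line from the lowest to the highest array, coloured by class. The 13 T and R copies lie between 2.90 and 5.55 in the mean and have short lines, while the 26 standard genes lie between 5.25 and 8.78.

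The standard genes moved from array to array more than most genes did. The SD over the 12 arrays had a median of 0.348 log2 units in the core particle and 0.400 in the regulatory particle. It was 0.201 among the 2778 genes with a mean of at least 6, 0.148 over all genes and 0.138 among the T and R copies. The widest courses belonged to the regulatory particle. Rpn3, a scaffold subunit of the lid, ran from 8.71 in ZT4 to 6.54 in CT4, a 4.49-fold span. Rpt2, an ATPase of the base, ran from 7.57 to 5.505 between the same arrays, a 4.19-fold span. The ATPases Rpt3 and Rpt4 and the deubiquitinase Rpn11 followed with 3.39-fold, 2.95-fold and 3.11-fold spans. The narrowest were the ATPase Rpt5 (1.58-fold) and the core subunit Prosbeta3 (1.59-fold).

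Most standard genes shared 1 course. As the median over the core genes of each gene's value minus its own mean over 12 arrays, the light/dark day read 0.47 in ZT4, 0.33 in ZT8, -0.29 in ZT12, -0.52 in ZT16, 0.22 in ZT20 and -0.31 in ZT24. In constant darkness the core read -0.47 in CT4, 0.36 in CT8, 0.14 in CT12, -0.25 in CT16, 0.19 in CT20 and 0.07 in CT24. The core was thus high early in the light/dark day, below its mean in ZT12, ZT16 and ZT24 and above it in ZT20. In constant darkness it was below its mean in CT4 and CT16 and above it in the other 4 arrays. The regulatory particle followed it, with 0.59 in ZT4, 0.38 in ZT8, -0.07 in ZT12, -0.24 in ZT16, 0.21 in ZT20 and -0.56 in ZT24. Its darkness values were -0.53 in CT4, 0.25 in CT8, 0.17 in CT12, -0.15 in CT16, 0.25 in CT20 and -0.01 in CT24. The regulatory genes were nearer their means than the core in ZT12 and ZT16 and farther below them in ZT24. The median over all genes stayed between -0.03 and 0.04.

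**Figure D2:**
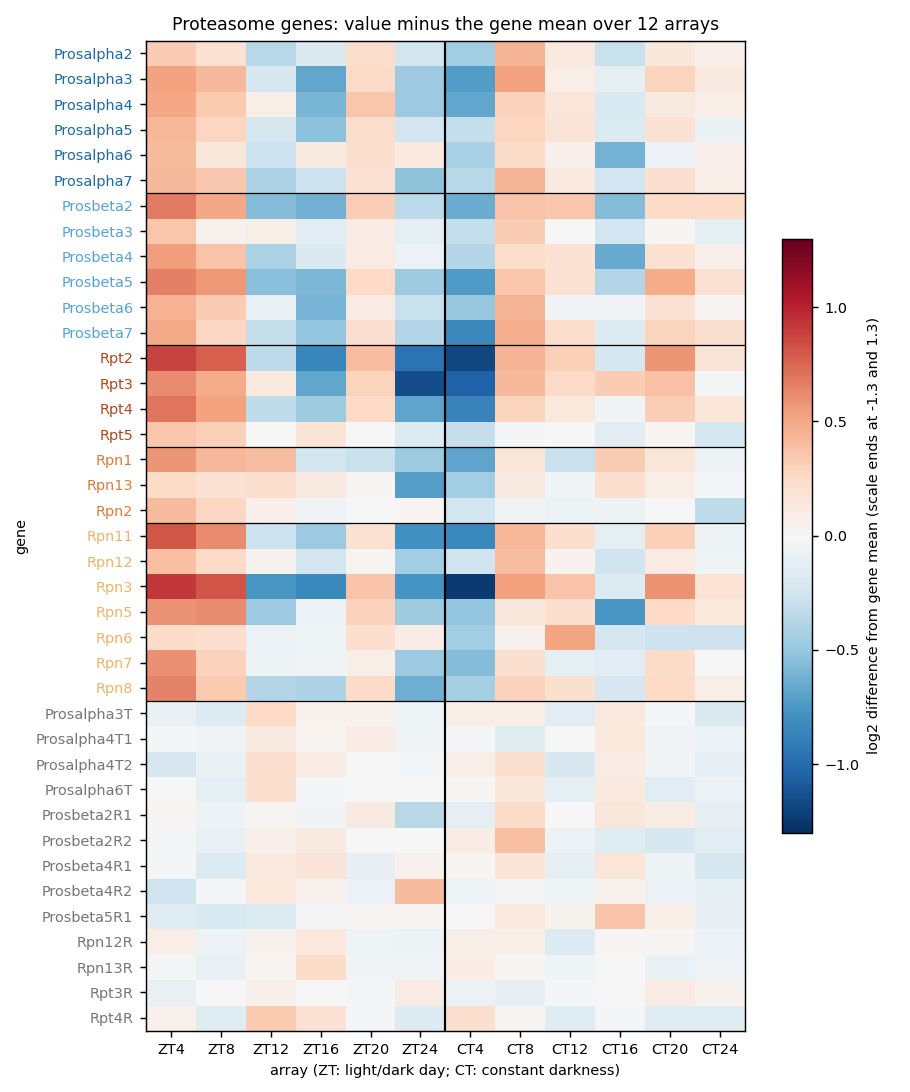
Value of each proteasome gene (rows, grouped by class) in each array (columns, light/dark day left of the line and constant darkness right of it), as the log2 difference from the gene's mean over 12 arrays. The standard genes above the lowest line are red in ZT4 and ZT8 and mostly blue in ZT24 and CT4, and the 13 T and R copies below it are pale.

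Over the 12 arrays, the median Pearson correlation between members was 0.874 within the core particle (66 pairs), 0.696 within the regulatory particle (91 pairs) and 0.755 between the particles (168 pairs). Pairs among all genes with a mean of at least 6 had a median of 0.026. These correlations are descriptions over arrays that share their processing, and carry no p. Against the median course of the other standard genes, 20 of 26 members had a correlation over 0.7, 11 of 12 in the core and 9 of 14 in the regulatory particle. Rpn11 at 0.982 and Rpn8, its partner in the lid, at 0.980 were nearest to that course. The members below 0.7 were Prosalpha6 (0.588) in the core and Rpt5 (0.593), Rpn1 (0.572), Rpn13 (0.572), Rpn2 (0.505) and Rpn6 (0.498) in the regulatory particle. All 3 measured non-ATPase base subunits are in that group: Rpn1 and Rpn2 are the large scaffold proteins and Rpn13 is a ubiquitin receptor.

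The T and R copies as a class did not follow the standard course. Prosbeta2R1 came nearest to it, with a correlation of 0.53, above the standard members Rpn2 (0.505) and Rpn6 (0.498). The median of the copies stayed between -0.10 and 0.12 in every array. Among themselves they correlated with a median of 0.314 (78 pairs), and with the standard genes with a median of -0.277 (338 pairs). Each copy's correlation with the gene it copies lay between -0.57 (Prosbeta4R1 with Prosbeta4) and 0.26 (Prosbeta2R1 with Prosbeta2). Dim probe sets have little room to move in RMA values, and the part of this in the flat courses was not tested.

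The shared course moved with measured properties of the arrays. The 5 arrays in which the standard genes were lowest, ZT12, ZT16, ZT24, CT4 and CT16, were also the 5 with the smallest SD over all probe sets (1.56 to 1.64, against 1.65 to 1.69 in the other 7). They were the 5 with the largest excess of 3' over 5' signal in the control probe sets as well, a sign of less complete RNA or cDNA (2.08 to 3.32 log2 units, against 1.49 to 2.02). This split was noticed after the values were seen, and it is no group of the study. Because these are the arrays in which the same genes were lowest, the counts that follow are partly fixed by the split and only describe it. In 15 of 26 standard genes, 9 in the core and 6 in the regulatory particle, all 5 of these arrays lay below all 7 others, against 0 of 13 T and R copies, 5.11% of all genes and 11.3% of genes with a mean of at least 6. The part of array quality in the course was not tested.

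Muscle markers were low in some of the same arrays. The median over 7 of 10 listed muscle genes read -0.31 in ZT12, -0.33 in ZT16 and -0.53 in CT4, but 0.16 in ZT24 and 0.04 in CT16. The summed level of the muscle list ranged from 51.6 to 57.4 in the light/dark day and from 51.6 to 56.7 in constant darkness. Head fat body markers (8 of 9 listed) read -0.24, -0.27 and -0.23 in ZT12, ZT16 and CT4, -0.07 in ZT24 and 0.29 in CT16. The median of the neuron markers (6 of 10 listed) was -0.66 in CT8, where gut markers (10 of 11) read 0.56. The neuron genes moved by unlike amounts, with an SD over the 12 arrays from 0.152 (Rab3) to 0.584 (elav). Their median in CT8 therefore does not stand for each gene. The part of these marker lists in the proteasome course was not tested.

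With the 5 arrays left out, the correlations over the 7 that remained were 0.753 within the core, 0.873 within the regulatory particle and 0.758 between them. With all arrays quantile normalized once more, they were 0.739, 0.599 and 0.643. The span of the class median over the arrays then went from 0.99 to 0.86 in the core and from 1.15 to 1.06 in the regulatory particle. The value between standard genes and T and R copies was -0.015 after the added normalization and 0.089 without the 5 arrays, and -0.421 without ZT16, ZT24, CT4 and CT8.

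**Figure D3:**
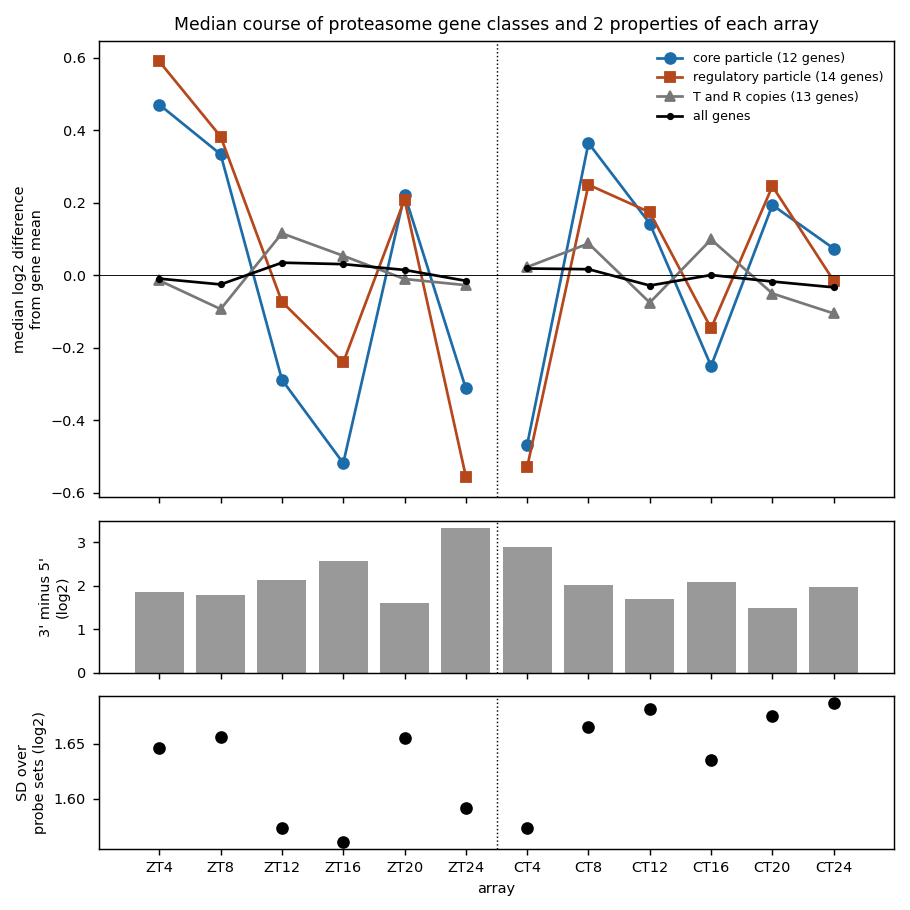
Upper panel: median log2 difference from the gene mean in each array, for the core particle, the regulatory particle, the T and R copies and all genes. Lower panels: the excess of 3' over 5' control signal (log2) and the SD over all probe sets (log2) of the same arrays. Both particles peak in ZT4 and are low in ZT16, ZT24 and CT4, the arrays with the tallest bars in the middle panel.

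Daily rhythm was tested with a 24-hour cosine and sine common to both days plus a step between days, fitted with limma to all 13966 probe sets. Of the 39 members, 0 passed an adjusted p of 0.05 (0.00922% of all genes did), and 0 had an unadjusted p under 0.05 (1.6% of all genes). Fitted amplitudes had a median of 0.144 log2 units in the core, 0.163 in the regulatory particle, 0.072 in the T and R copies and 0.068 over all genes. Prosbeta4, a structural beta subunit, had the smallest p of the core genes. Its values were 8.91, 8.74, 7.95, 8.17, 8.47 and 8.29 from ZT4 to ZT24, then 7.98, 8.59, 8.55, 7.71, 8.56 and 8.43 from CT4 to CT24. It was high in the first arrays of the light/dark day and low in CT4 and CT16, and its amplitude was 0.21 ± 0.13 (SE), with a limma adjusted p of 1.0. Single arrays decided its size, which was 0.34 without CT4 and 0.12 without CT16.

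Rpn13, the ubiquitin receptor, had the smallest p of all members. Its values were 7.99, 7.94, 7.97, 7.87, 7.77 and 7.04 in the light/dark day and 7.29, 7.87, 7.71, 7.97, 7.84 and 7.74 in darkness. It was even across the arrays except for ZT24 and CT4, which are neighbours in time. These arrays also had the largest 3' minus 5' signals (3.32 and 2.88 log2 units), and the part of array quality was not tested. The amplitude of Rpn13 was 0.22 ± 0.10 (SE) with a fitted peak at 12.9 hours, and its limma adjusted p was 1.0. Without ZT24 the amplitude was 0.10, and without ZT16, ZT24, CT4 and CT8 it was 0.04 ± 0.06 (SE). The ATPase Rpt5 and the copy Prosbeta5R1, whose values follow below, had amplitudes of 0.09 ± 0.07 and 0.10 ± 0.05 (SE). That of Rpt5 was 0.05 without ZT24 and 0.14 without CT20, and that of Prosbeta5R1 was 0.06 without CT16.

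Fitted to each day alone, the curves of the standard genes were larger in the light/dark day, except in Rpn6 and Rpt3. In the light/dark day the median amplitude was 0.329 in the core and 0.334 in the regulatory particle. It was 0.110 over all genes and 0.146 in genes with a mean of at least 6. All 26 fitted peaks fell between 1.25 and 11.02 hours after lights on. In constant darkness the median amplitude was 0.124 in the core and 0.248 in the regulatory particle, against 0.092 over all genes, and peaks spread from 3.33 to 17.2 hours. A curve fitted to 6 arrays follows single arrays closely.

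No member passed the adjusted threshold in either day by limma (0 of 39 in light/dark, with 0.0% of all genes, and 0 of 39 in darkness, also with 0.0%). At an unadjusted p under 0.05 the light/dark day gave 2 members, Rpn1 and Rpn2 (3.5% of all genes). Darkness gave 2, Rpn6 and Prosbeta2R2 (1.59% of all genes). The difference of rhythm between days passed in 0 of 39 members (0.00922% of all genes). At an unadjusted p under 0.05 it gave 4 members (2.56% of all genes), and these were the same genes, Rpn1, Rpn2, Rpn6 and Prosbeta2R2. The difference test compares the same fitted curves as the tests of each day, so this overlap is no separate support. The smallest adjusted p of any member in these 3 tests was 0.986.

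Rpn1, the scaffold that in yeast docks ubiquitin-like domains, read 8.44, 8.30, 8.27, 7.63, 7.58 and 7.39 from ZT4 to ZT24. In darkness it read 7.18, 8.02, 7.58, 8.20, 8.02 and 7.80. It stepped down after ZT12 in the light/dark day, without the higher ZT20 value of most members, and had its highest darkness value in CT16, an array in which most members were low. Rpn6, the lid subunit that in yeast clamps the particle to the core, read 7.42, 7.39, 7.10, 7.12, 7.40 and 7.28, then 6.72, 7.24, 7.69, 6.95, 6.91 and 6.90. It was nearly level in the light/dark day and stood highest in CT12. Prosbeta2R2 read between 5.46 and 5.67 in the light/dark day and between 5.34 and 5.94 in darkness, with its highest value in CT8.

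The fit with the common curve also gave the step in mean level from the first day to the second. Of the 39 members, 0 passed an adjusted p of 0.05 by limma (0.0% of all genes), and the smallest adjusted p was 0.930. The median difference, darkness minus light/dark, was 0.015 in the core (8 higher, 4 lower), -0.024 in the regulatory particle (5 higher, 9 lower) and -0.020 in the T and R copies (3 higher, 10 lower). Over all genes it was -0.009, and 54.0% had a fitted value below 0. In 0 of 39 members did the 6 values of the days fail to overlap, as they did in 0.194% of all genes. At an unadjusted p under 0.05, 2 members were lower in darkness (2.12% of all genes) and 1 was higher (1.72% of all genes).

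Rpn2, the second large scaffold of the base, was 1 of the 2 lower members. It read 6.46, 6.32, 6.11, 6.0, 6.04 and 6.08 in the light/dark day and 5.81, 6.01, 5.99, 5.98, 6.06 and 5.72 in darkness. Its values in ZT4, ZT8, ZT12 and ZT24 lay above every darkness value, and those in ZT16 and ZT20 lay within the darkness range. The difference was -0.24 ± 0.09 (SE), with a limma adjusted p of 0.930.

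Rpt5, the ATPase whose tail docks into the alpha ring in yeast, was the other. It read 8.33, 8.28, 7.96, 8.15, 7.97 and 7.79, then 7.67, 7.94, 7.97, 7.82, 7.998 and 7.74. The 3 values above 8.1 were all of the light/dark day, and the other arrays overlapped. The difference was -0.22 ± 0.10 (SE), with a limma adjusted p of 0.930.

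Prosbeta5R1, a copy of the catalytic subunit Prosbeta5, was the higher member. It read 4.00, 3.96, 3.99, 4.15, 4.19 and 4.18, then 4.16, 4.29, 4.20, 4.53, 4.24 and 4.06. All values were dim, the lowest 3 were of the light/dark day, and CT16 stood highest. The difference was 0.17 ± 0.08 (SE), with a limma adjusted p of 0.930.

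Prosalpha6, an alpha ring subunit, had the smallest p in the core. It read 7.64, 7.38, 6.96, 7.35, 7.45 and 7.36 in the light/dark day and 6.81, 7.47, 7.30, 6.62, 7.16 and 7.30 in darkness. Unlike most members it was near its mean in ZT16 and ZT24, while its CT16 value was its lowest. The difference was -0.25 ± 0.15 (SE), with a limma adjusted p of 0.930. It was -0.14 without CT4 and -0.16 without CT16.

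The catalytic genes had differences near 0 with a wide error. Prosbeta2, which cuts after basic residues, read 8.86, 8.68, 7.61, 7.55, 8.50 and 7.84, then 7.54, 8.55, 8.54, 7.62, 8.43 and 8.44. Prosbeta5, which cuts after hydrophobic residues, read 7.80, 7.71, 6.61, 6.56, 7.41 and 6.68, then 6.41, 7.51, 7.34, 6.77, 7.63 and 7.33. Both were high in ZT4, ZT8 and ZT20 and low in ZT12, ZT16, ZT24, CT4 and CT16, so the days overlapped over nearly their whole range. The differences were 0.01 ± 0.27 and 0.04 ± 0.28 (SE), and their sign turned under other processing.

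**Figure D4:**
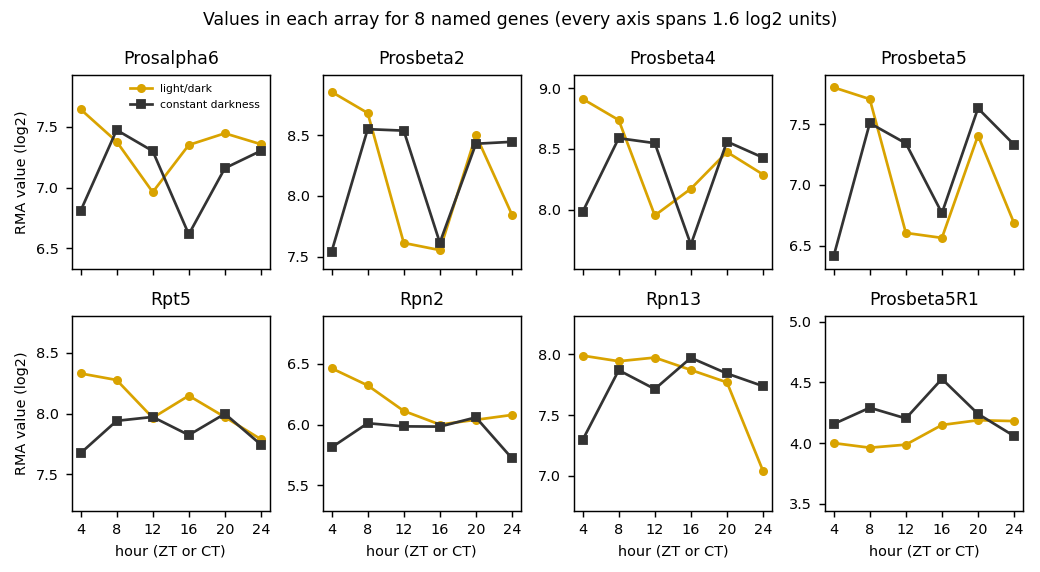
Value (RMA, log2) of 8 named genes against hour of day, with circles for the light/dark day and squares for constant darkness, each point 1 array and every vertical axis 1.6 log2 units long. At hour 4 the light/dark value lies above the darkness value in 7 of the 8 genes, Prosbeta5R1 being the exception, and at later hours the days cross.

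The mean over a day hid differences at single hours. In CT4 all 26 standard genes were lower than in ZT4, by a median of -1.08 log2 units (45.4% of all genes were lower, with a median of 0.03). This pair ran from -0.65 in Rpn2 to -2.17 in Rpn3, and its median was -0.93 in the core and -1.12 in the regulatory particle. At hour 24 the order was turned, with 21 of 26 higher in darkness and a median of 0.58, and at hour 12 20 of 26 were higher with a median of 0.43. At hours 8, 16 and 20 the medians were -0.08, 0.14 and 0.06. Each of these rests on 1 array a side and has no test. CT4 had a 3' minus 5' signal of 2.88 against 1.84 in ZT4, and ZT24 one of 3.32 against 1.96 in CT24. Their part was not tested.

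**Figure D5:**
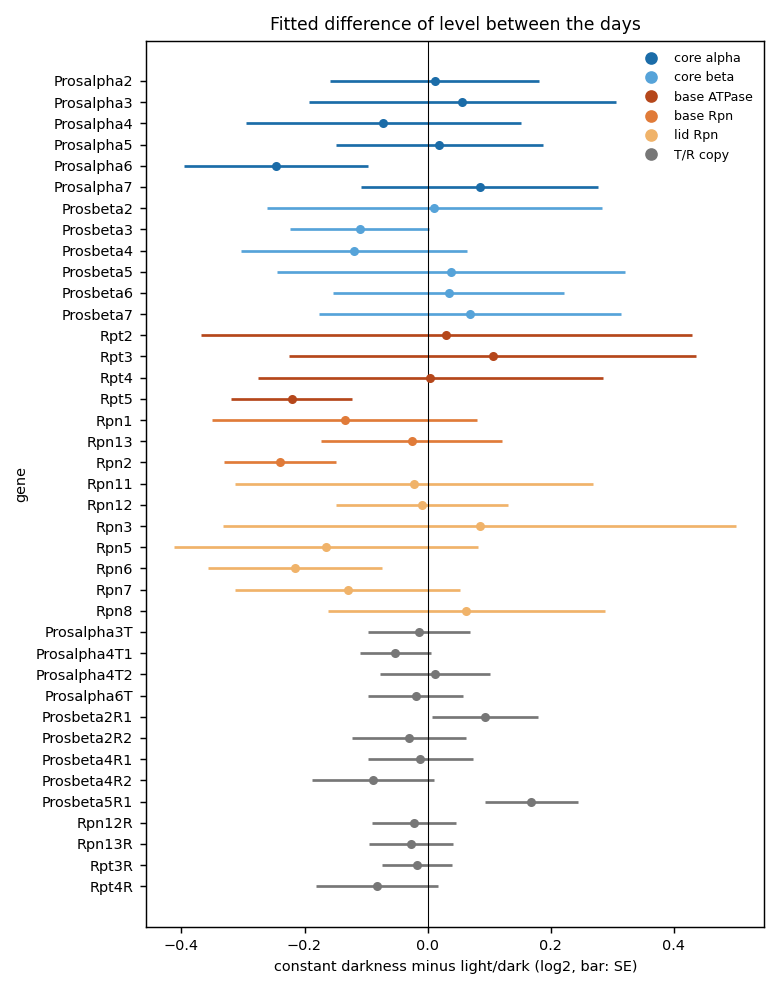
Fitted difference of level between the days for each proteasome gene (darkness minus light/dark, log2), with a bar of 1 SE on each side. The points of the standard genes fall on both sides of 0, with medians of 0.015 in the core and -0.024 in the regulatory particle, and none of the 39 passed the adjusted threshold.

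Only 2 members, both core genes, had another probe set named for them, and both of these went the other way. The second probe set of Prosbeta6 had a mean of 5.49 and a correlation of -0.668 with the first over the 12 arrays, with its highest values in ZT24 (5.98) and CT4 (5.86). That of Prosalpha7 had a mean of 4.00 and a correlation of -0.599, with its highest value in ZT16 (4.52). For these genes the shared course therefore rests on the brighter probe set, and no other member had a second probe set to compare.

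Genes that act around the proteasome were read from lists. None of their members passed the adjusted threshold for the rhythm or the day difference by limma. Of 7 measured (9 listed) genes for ubiquitin, ubiquitin-like proteins and their activation, 5 were higher in darkness, with a median difference of 0.20. Ubi-p5E and Ubi-p63E encode chains of ubiquitin repeats. Ubi-p5E read 11.74, 11.91, 8.999, 9.35, 10.66 and 10.09 in the light/dark day and 9.78, 10.92, 11.65, 9.46, 11.40 and 11.23 in darkness. It was low in the same 5 arrays as the proteasome genes, and its correlation with their median course was 0.828. Ubi-p63E had a correlation of 0.675, and the differences of the pair were 0.28 ± 0.53 and 0.42 ± 0.48 (SE).

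Of 8 measured (10 listed) genes for shuttles, the TER94 segregase and deubiquitinases, 4 had a higher mean in darkness and 4 a lower one, and the median difference was -0.09. TER94, which pulls tagged proteins out of complexes, read between 8.01 and 8.54 in the light/dark day and between 7.63 and 8.30 in darkness, a difference of -0.27 ± 0.12 (SE, limma adjusted p = 0.930). Correlations of the 8 with the proteasome course ran from -0.764 in Usp14, a deubiquitinase that binds the base, to 0.695 in p47, an adaptor of TER94, with Npl4 at 0.664 and Uch at 0.648. Uch-L5, the deubiquitinase that docks on Rpn13, had an amplitude of 0.27 ± 0.09 (SE) at a dim level of 3.59, with a limma adjusted p of 1.0.

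Among 6 measured (7 listed) activators, inhibitors, assembly factors and regulators, darkness was above light/dark in 3 and below it in 3, and the median difference was 0.01. The transcription factor cnc read between 5.18 and 5.71 in the light/dark day and between 5.16 and 5.77 in darkness. It was highest in CT4, where most proteasome genes were lowest, and its correlation with their course was -0.873. In ZT12, ZT16, ZT24, CT4 and CT16, the arrays with the largest 3' excess, cnc read 5.455 to 5.767. In all other arrays it read 5.157 to 5.44. The part of array quality in the correlations of these lists was not tested. The cnc partner maf-S had a correlation of 0.730, and the assembly factor Pomp one of -0.628. The 6 measured of 14 listed ubiquitin-conjugating enzymes had a median difference of 0.07, and their correlations with the course ran from 0.027 (Ubc2) to 0.825 (Ubc7). The 9 measured of 10 listed genes of the COP9 signalosome, a complex built like the lid, had a median difference of 0.01 and correlations from -0.729 (CSN1a) to 0.837 (CSN6).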

How the data were processed

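The authors deposited RMA values per the submitters' processing notes, 1 per probe set and array, with no version stated. The deposited values were taken as log2 from their range (1.72 to 13.5), so the log base is inferred. Array medians lay between 4.80 and 4.88. No counts or depth exist for arrays, and their number limits precision. Of 14010 probe sets, 44 controls were set aside and 13966 fitted, of which 12443 carry 1 gene symbol, 327 several and 1196 none in the platform annotation. Only probe sets with 1 symbol were named. RefSeq (Release 6) gave current symbols to 12394, without coordinates.

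limma 3.58.1 in R 4.3.3 fitted a day step with 24-hour cosine and sine terms, common or separate by day. Spread comes from residuals around the curves, with Benjamini-Hochberg adjustment over all 13966 probe sets at 0.05. The fits were also run on simulated data. Noise there was independent between probe sets, unlike the course that members share in the real arrays, so no result here rests on it. Values in every array are given for the catalytic genes and, in each class, for the member with the smallest unadjusted p for the day difference and for the common rhythm. Further genes (Rpn1, Rpn6, Prosbeta2R2, Ubi-p5E) were added after their values were seen. Members and lists were chosen with earlier results of these data known. Alternatives were an added quantile normalization, an offset of 16, trended robust variance, array weights, the 3' minus 5' signal as covariate, a mean of at least 5, averaged probe sets, the hour as a block, and arrays left out.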

Additional observations from a re-analysis of the deposited data

Results flagged for a closer look

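Each gene's 6 values of a day were checked for 1 array far from the others, with the gap to the nearest value over the whole range set against Dixon's 95% critical value for 6 samples. Of 78 such sets 4 passed, which is close to the share of about 1 in 20 that chance gives. All lay in CT4, ZT24 or ZT16, the arrays with the largest 3' minus 5' signals (2.88, 3.32 and 2.58). The part of array quality was not tested. Rpt3 read 5.296 in CT4, against 6.335 to 6.776 in the other darkness arrays. Rpt4 read 6.025 in CT4, against 6.855 to 7.217. Rpn13 read 7.04 in ZT24, against 7.769 to 7.989 in the other light/dark arrays. Rpn13R read 4.002 in ZT16, against 3.667 to 3.791.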

How the results depend on the processing

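In all 21 alternatives (22 for the day difference) 0 of 39 members were called in any of the 5 tests, and the smallest adjusted p of a member was 0.252, for the rhythm in light/dark. The medians of the day difference were small and had no fixed sign. They ran from -0.11 to 0.17 in the core, from -0.23 to 0.07 in the regulatory particle and from -0.07 to 0.02 in the T and R copies. Without CT4 the core median was 0.17 and without ZT16 it was -0.08. Without ZT24 the regulatory median was -0.19 and without ZT4 it was 0.07.

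The differences of Prosbeta2 and Prosbeta5 turned below 0 after the added quantile normalization (-0.12 and -0.011), with the 3' minus 5' covariate (-0.14 and -0.12) and without the 5 arrays of smallest spread, an alternative chosen after seeing the data (-0.15 and -0.15). The cause was not tested. With 1 array left out at a time they ran from -0.10 to 0.23 and from -0.10 to 0.27. Amplitudes then ran from 0.13 to 0.46 in Prosbeta2, 0.04 to 0.40 in Prosbeta5, 0.12 to 0.34 in Prosbeta4, 0.10 to 0.29 in Rpn13, 0.05 to 0.14 in Rpt5 and 0.06 to 0.13 in Prosbeta5R1. The difference of Prosalpha6 ran from -0.33 to -0.14. With the 3' minus 5' covariate, amplitudes were 0.40 ± 0.10 in Prosbeta2, 0.34 ± 0.09 in Prosbeta5 and 0.30 ± 0.09 in Prosbeta4 (SE). The main fit gave 0.24 ± 0.19, 0.17 ± 0.20 and 0.21 ± 0.13. Without ZT16, ZT24, CT4 and CT8 these genes had 0.50, 0.44 and 0.42. Under the same 2 changes Rpn13 fell from 0.22 to 0.145 and 0.04. Rpt5 had 0.08 and 0.14, and Prosbeta5R1 0.11 and 0.17. None was called, and the cause was not tested. Prosbeta5R1 has no value where a mean of at least 5 was asked. With the hour of day as a block, which pairs ZT4 with CT4 and so on, the class medians were 0.015, -0.024 and -0.020 and the smallest adjusted p of a member was 0.946. Planned promoter motifs were not run. The main limits are 1 array per time point, array quality that moved with the members' course, and darkness confined to the later day.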
